A study of Mus musculus with 6 samples.

Results

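Ras, Raf and PI3K pathway components are described here as 50 genes, chosen by symbol from a list of Ras-family GTPases, their regulators, the Raf-MEK-ERK and PI3K-AKT arms and FOXO-dependent genes. All 50 were among the 12830 genes with counts. RNA came from mouse BMSCs, primary bone marrow stromal cultures able to give bone and fat, after 2 days of osteogenic induction. The comparison was of 3 libraries from Rras2 f/f mice (called FF, the floxed controls) with 3 from Prx1;Rras2 f/f mice (called cKO, for conditional knockout). Both groups carried the floxed Rras2 allele, the donors were 8 weeks old, and the series text also calls the controls WT. The Prx1 promoter is active in limb mesenchyme. Whether replicate libraries came from separate mice is not given, so the p-values describe spread among these 6 libraries, and that spread may be technical.

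Ras proteins are small GTPases that signal when bound to GTP. Exchange factors such as the Sos proteins load GTP, and GTPase-activating proteins such as neurofibromin turn the signal off. Active Ras passes the signal to Raf, MEK and ERK kinases and to PI3K, which activates AKT; AKT in turn keeps FOXO transcription factors out of the nucleus. Rras2 encodes TC21, an R-Ras subfamily GTPase known to engage PI3K. Messenger RNA counts do not report GTP loading or phosphorylation.

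Counts over the listed genes summed to 31934714 to 37561452 per library. FF replicate 1 stood apart in Ifit3, an interferon-induced gene, with 238 CPM against 12.2 to 38.8 CPM in the other 5 libraries. CPM is the count scaled to library size, here with TMM factors. All 8 defining stromal markers were measured, summing to 16507 to 17878 CPM in FF and 11179 to 13226 CPM in cKO. Of the 8, 4 fell (Col1a1, Col1a2, Dcn and Lum). Most of each sum came from Col1a1 and Col1a2. Col3a1, Prrx1, Pdgfrb and Pdgfra were not called, with log2 fold changes of -0.19, -0.14, -0.05 and -0.04. Of 8 osteoblast markers, summing to 4292 to 4600 CPM in FF and 3458 to 3819 CPM in cKO, 2 fell. All 7 marrow niche markers rose, from sums of 3955 to 4155 CPM to sums of 5305 to 5701 CPM. Macrophage RNA was present, with all 10 markers measured and sums of 21543 to 22896 CPM in FF and 23330 to 24095 CPM in cKO; 1 (Tyrobp) rose and 1 (Cd14) fell. Without Lyz2, the most abundant of them, the sums of the other 9 overlapped, at 6244 to 6688 CPM in FF and 6400 to 6718 CPM in cKO. Of 8 B and plasma cell markers 4 were measured, and their sums were 181 to 198 CPM in FF and 295 to 357 CPM in cKO. In a bulk sample, fewer cells of a type and less RNA per cell cannot be told apart.

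Of the 50 members, Rras2 and Irs1 fell in cKO and 0 rose. A member passed at an adjusted p below 0.05 in edgeR's quasi-likelihood test, with Benjamini-Hochberg adjustment over all genes. The 2 that passed are 4% of the members, beside 4.84% of all 12830 genes. Over all genes 2.74% fell and 2.1% rose. DESeq2 called the same number of members, 2, with 6.61% of all genes, and limma-voom called 1 (Rras2), with 3.38% of all genes. At an unadjusted p below 0.05 there were 8 members, beside 17.3% of all genes. The median log2 fold change was 0.011 over the 50 members and 0.00058 over all genes. The median size of a change, whatever its direction, was 1.04-fold for the members and 1.06-fold for all genes. Groups of 3 libraries did not overlap for 12 members, which is 24% beside 22.5% of all genes. Of these, 9 were higher in cKO, beside 11.3% of all genes, and 3 lower, beside 11.2%. A fold of at least 1.2 in either direction was seen for 3 members (Rras2, Rerg and Rasl11b), or 6%, beside 13.6% of all genes. For 45 of the 48 members that did not pass, the 95% interval of the fold change, not adjusted for the number of genes, lay within 1.2-fold in either direction. The other 3 were Rerg, Rasl11b and Pik3ip1. Over all genes, called or not, 6521 of 12830 had an interval within 1.2-fold.

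**Figure D1:**
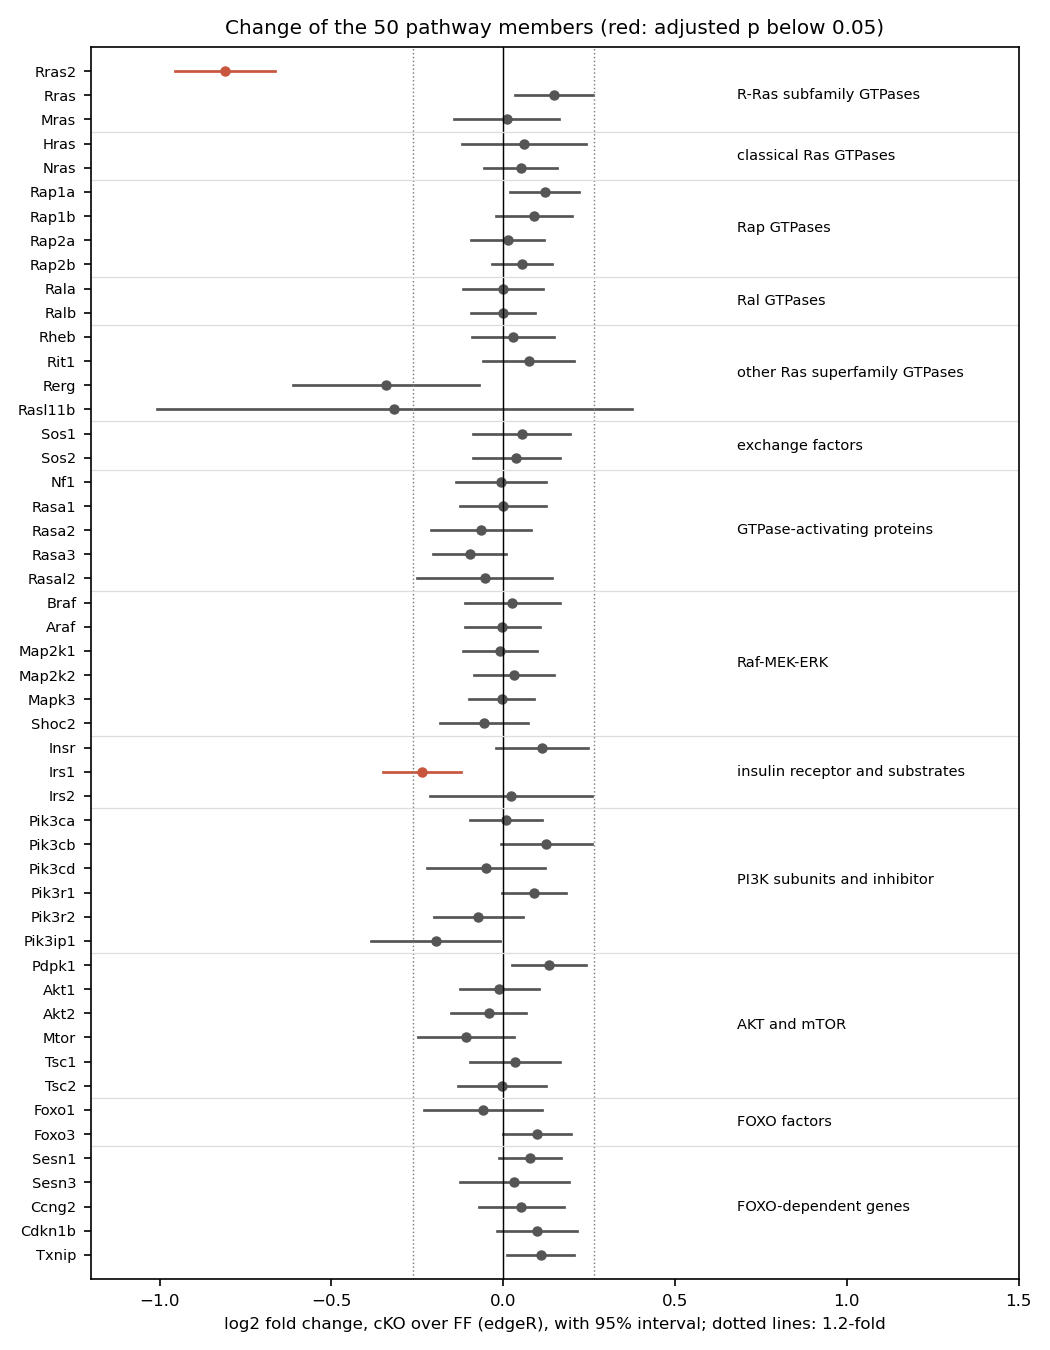
Log2 fold change of each of the 50 members, cKO over FF, with its 95% interval (edgeR, 3 libraries a group), ordered by role; dotted lines mark 1.2-fold. Rras2 at -0.81 and Irs1 at -0.24 are the 2 called members, and most other intervals span 0.

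Levels per transcript length, as the authors' FPKM, spanned a wide range among the members. Rap1b, a Rap GTPase of cell adhesion, had the highest mean, 200 ± 3.08 FPKM in FF and 211 ± 12.7 FPKM in cKO (SD, n = 3). Txnip, Akt1, Sesn1 and Mapk3 followed, with means over the 6 libraries of 175, 92.8, 86.7 and 86.6 FPKM. Sesn1 and Mapk3 lay closer together than their spread. At the low end Irs2, Rasal2 and Foxo1 had 2.28, 2.27 and 2.25 FPKM and did not differ beyond their spread, and Rasl11b had 0.639 FPKM. The median of all genes was 9.45 FPKM. Rras2 took rank 28 of the 50 over all 6 libraries, at 19.3 ± 1.13 FPKM in FF and 10.9 ± 0.563 FPKM in cKO (SD, n = 3). The spread between libraries of a group was small: the median coefficient of variation of the members' CPM was 4.16% in FF and 4.72% in cKO, against 5.20% and 6.26% over all genes.

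**Figure D2:**
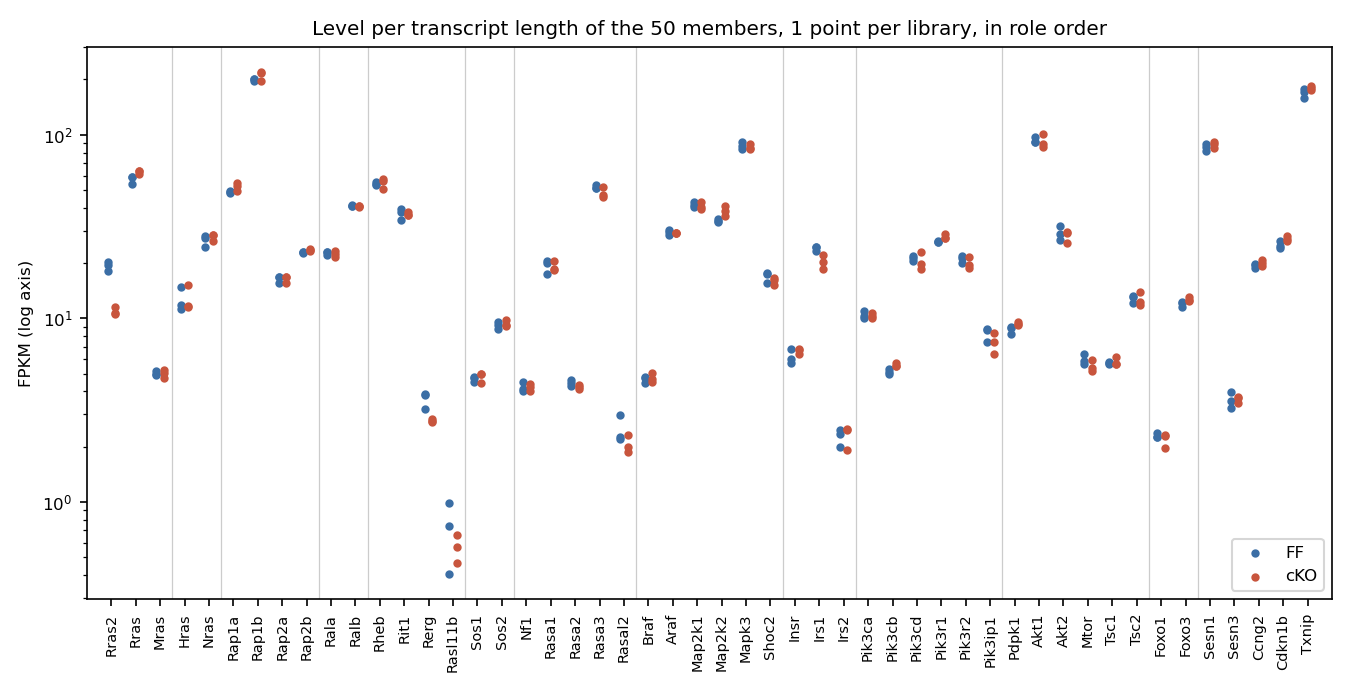
FPKM of the 50 members on a log axis, 1 point per library, in role order with grey lines between roles; FF is blue and cKO red. Rap1b and Txnip are highest and Rasl11b lowest, and the groups' points separate widely only for Rras2.

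Rras2, the targeted gene, had 49.7, 50.1 and 44.7 CPM in FF replicates 1, 2 and 3 and 26.7, 29.0 and 26.8 CPM in cKO replicates 1, 2 and 3. Every cKO library was below every FF library, and the lowest FF library was well above the highest cKO library. That is a log2 fold change of -0.81 (standard error 0.0683), or 0.570 of the FF level with a 95% interval of 0.515 to 0.631 (edgeR adjusted p = 1.08e-05, rank 10 of 12830 by p). Leaving out each library in turn gave log2 fold changes of -0.86 to -0.78. The exons that these reads cover are not seen in a table of gene counts. The macrophage marker sums given above did not overlap with Lyz2 and overlapped without it, and their part in the remaining Rras2 signal was not tested. Rras2 lies on the minus strand of chromosome 7, at chr7:114046782-114117781 (mm10, GENCODE M21). The 250 bases upstream of its RefSeq start, chr7:114117782-114118031 on the minus strand (GRCm38.p6), are shown because this gene was the target of the deletion; they held neither of the motifs described below, so no letter is in capitals.
Rras2 upstream: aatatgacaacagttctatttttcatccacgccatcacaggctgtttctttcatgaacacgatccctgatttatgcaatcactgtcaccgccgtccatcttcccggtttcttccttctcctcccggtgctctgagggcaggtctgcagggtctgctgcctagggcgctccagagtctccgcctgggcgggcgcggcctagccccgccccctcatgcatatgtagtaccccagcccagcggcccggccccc

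The closest relatives of Rras2 did not pass. Rras, the founding R-Ras gene, had 59.0, 62.2 and 62.9 CPM in FF and 66.1, 68.3 and 69.5 CPM in cKO. The groups did not overlap, yet the difference was 1.11-fold with a 95% interval of 1.02 to 1.20 (edgeR adjusted p = 0.153). Mras, which forms a phosphatase complex with Shoc2 that activates Raf, had 27.1, 25.2 and 24.9 CPM in FF and 26.8, 26.2 and 24.7 CPM in cKO. Its groups overlapped, with a fold of 1.01 and a 95% interval of 0.906 to 1.12. Among the classical Ras genes, Nras had 119, 125 and 133 CPM in FF and 126, 131 and 134 CPM in cKO, with overlapping groups (log2 fold change 0.05, edgeR adjusted p = 0.670). Hras, at 0.06 on the log2 scale, did not pass either (edgeR adjusted p = 0.786).

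Summed over these 5 genes, Rras was the most abundant by FPKM in every library and Mras the least. Other Ras genes are outside this sum. Rras2 made up 17.0%, 16.1% and 14.9% of the summed FPKM in the FF libraries and 9.27%, 9.37% and 8.87% in the cKO libraries. The share went from 16.0% ± 1.06 to 9.17% ± 0.264 (SD, n = 3). The share of Rras was 47.3% ± 1.15 in FF and 52.6% ± 1.18 in cKO, but any gene's share of this sum is larger where Rras2 is lower. Within the other 4 genes the share of Rras was 55.4% to 57.1% in FF and 56.6% to 58.7% in cKO, and the groups overlapped. The summed FPKM of the 4 genes without Rras2 was 101 ± 5.49 in FF and 108 ± 3.88 in cKO, and the groups overlapped. These shares are descriptions without a test: with 3 libraries against 3 an exact permutation test cannot go below 0.1.

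**Figure D3:**
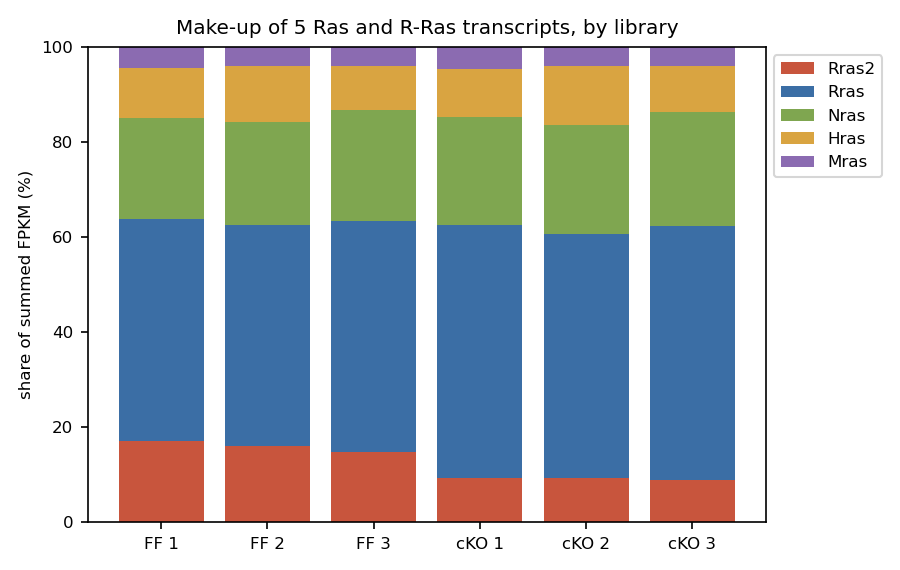
Share of the summed FPKM of Rras2, Rras, Nras, Hras and Mras that each gene took, 1 stacked bar per library. The Rras2 share was 14.9% to 17.0% in FF and 8.87% to 9.37% in cKO.

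The Rap GTPases act mainly on integrin adhesion and are relatives of Ras. The 4 among the members had positive log2 fold changes of 0.01 to 0.12, and 0 of 4 passed. Log2 fold changes were positive for 6436 of all 12830 genes. Rap2c, a Rap gene that is no member, was at -0.05 (edgeR adjusted p = 0.770). Rap1b had 613, 588 and 577 CPM in FF and 584, 653 and 655 CPM in cKO. Its cKO replicate 1 lay inside the FF range and the other cKO libraries above it (edgeR adjusted p = 0.411). Rap1a had 129, 124 and 125 CPM in FF and 130, 139 and 142 CPM in cKO, with cKO replicate 1 again closest to FF (log2 fold change 0.12, edgeR adjusted p = 0.183). Without cKO replicate 1 both passed, with edgeR adjusted p = 0.0280 for Rap1a and 0.0439 for Rap1b. Without any of the other 5 libraries neither passed. Rap2a and Rap2b had log2 fold changes of 0.01 and 0.06.

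The Ral GTPases, which are switched on downstream of Ras and regulate exocytosis, had the smallest median change of the 13 roles. Ralb had 104, 101 and 103 CPM in FF and 102, 103 and 103 CPM in cKO. All libraries lay within a few CPM of each other, and the 95% interval of the fold was 0.938 to 1.07. Rala had a fold of 0.999 with a 95% interval of 0.922 to 1.08. Ralb made up 64.4% of their summed FPKM in FF and 64.6% in cKO.

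Of the other GTPases, Rheb, the activator of mTORC1, had 110, 103 and 104 CPM in FF and 98.5, 113 and 111 CPM in cKO, and the groups overlapped (edgeR adjusted p = 0.849). Rerg, a Ras-like GTPase known as an inhibitor of growth, had 9.12, 9.29 and 7.45 CPM in FF and 6.73, 6.68 and 6.99 CPM in cKO. The groups did not overlap, and FF replicate 3 lay nearest to cKO. On the log2 scale cKO was at -0.34 against FF (standard error 0.127, edgeR adjusted p = 0.163). Rit1 had a log2 fold change of 0.07. Rasl11b, at a mean of 45.2 counts per library, had a fold of 0.803 and the widest 95% interval of the 50 members, 0.497 to 1.3.

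Exchange factors and GTPase-activating proteins set the GTP loading of Ras. Both Sos genes were flat: Sos2 had 52.7, 54.0 and 57.1 CPM in FF and 58.7, 54.9 and 54.6 CPM in cKO (log2 fold change 0.04), and Sos1 had a log2 fold change of 0.05. All 5 GTPase-activating protein genes had log2 fold changes below 0, between -0.10 and -0.0013, and 0 of 5 passed. Rasa3, which acts on Ras and Rap1, was the most abundant by FPKM. It had 250, 253 and 245 CPM in FF and 250, 221 and 228 CPM in cKO. Its cKO replicate 1 lay among the FF libraries and the other cKO libraries below them (edgeR adjusted p = 0.333, and 0.0243 without cKO replicate 1). Nf1, the neurofibromin gene, had a fold of 0.995 with a 95% interval of 0.909 to 1.09. Rasa1, Rasa2 and Rasal2 had log2 fold changes of -0.0013, -0.07 and -0.05.

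None of the 6 Raf-MEK-ERK members passed, and their log2 fold changes lay between -0.06 and 0.03. Mapk3, which encodes ERK1, had 167, 177 and 169 CPM in FF and 176, 168 and 168 CPM in cKO, a fold of 0.997 with a 95% interval of 0.934 to 1.06. Braf and Araf had folds of 1.02 and 0.998, and Araf made up 86.3% of their summed FPKM in FF and 86.0% in cKO. The MEK genes Map2k1 and Map2k2 had folds of 0.994 and 1.02 from counts, with overlapping groups. Shoc2, the scaffold that works with Mras, had a fold of 0.962 with a 95% interval of 0.881 to 1.05.

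Map2k2, which encodes MEK2, differed between counts and FPKM. Its FPKM was 35.0, 33.8 and 33.3 in FF and 40.7, 38.5 and 36.3 in cKO. Every cKO library was above every FF library, whereas the CPM of the groups overlapped. The ratio of count to FPKM, which follows the transcript length behind the authors' FPKM, was scaled to a typical gene of its library and to an FF level near 1. For Map2k2 this ratio was 0.993 to 1.004 in FF and 0.870, 0.913 and 0.904 in cKO. It did not pass in a limma test over 12057 genes (adjusted p = 0.430), in which 0.0581% of genes passed and 4.45% had an unadjusted p below 0.05. This comparison was chosen after the values were seen. For Rras2 the ratio was 0.998 to 1.002 in FF and 0.997 to 0.999 in cKO.

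Irs1 was the only called member besides Rras2. It encodes insulin receptor substrate 1, the docking protein that links insulin and IGF-1 receptors to PI3K. Irs1 had 238, 241 and 242 CPM in FF and 221, 204 and 188 CPM in cKO. The FF libraries lay close together, all cKO libraries were lower, and cKO replicate 1 was nearest to FF. The cKO level was 0.850 of that in FF, with a 95% interval of 0.785 to 0.919 (log2 fold change -0.24, standard error 0.0531, edgeR adjusted p = 0.0198). The call rested on all libraries but 1. Leaving out FF replicate 1 gave an edgeR adjusted p of 0.0526, FF replicate 2 gave 0.104 and FF replicate 3 gave 0.0821. Leaving out cKO replicate 2 gave 0.0921 and cKO replicate 3 gave 0.0905, against 0.000351 without cKO replicate 1. It was 0.0604 in limma-voom and 0.00173 in DESeq2. The stromal and osteoblast marker sums given above were also lower in cKO, and the marrow niche sums were higher. The stromal sums came mostly from Col1a1 and Col1a2, while Pdgfra and Pdgfrb had log2 fold changes of -0.04 and -0.05. The part of cell make-up in the Irs1 difference was not tested.

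The other receptor-level genes did not pass. Insr, the insulin receptor, had a fold of 1.08 with a 95% interval of 0.986 to 1.19. Irs2 had a fold of 1.02 with a 95% interval of 0.863 to 1.20. By FPKM, Irs1 made up 91.4% ± 0.685 of the summed Irs1 and Irs2 in FF and 89.9% ± 0.748 in cKO (SD, n = 3), and the groups did not overlap. Irs1 lies on the minus strand of chromosome 1, at chr1:82233101-82291416 (mm10, GENCODE M21). Its 250 upstream bases, chr1:82291440-82291689 on the minus strand (GRCm38.p6), are shown because it was the called member other than the target, with copies of an insulin response motif in capitals.
Irs1 upstream: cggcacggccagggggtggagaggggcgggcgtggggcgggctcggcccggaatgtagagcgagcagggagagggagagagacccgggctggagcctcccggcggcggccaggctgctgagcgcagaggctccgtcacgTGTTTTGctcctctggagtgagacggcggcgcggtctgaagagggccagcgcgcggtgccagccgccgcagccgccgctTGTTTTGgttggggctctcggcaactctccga

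**Figure D4:**
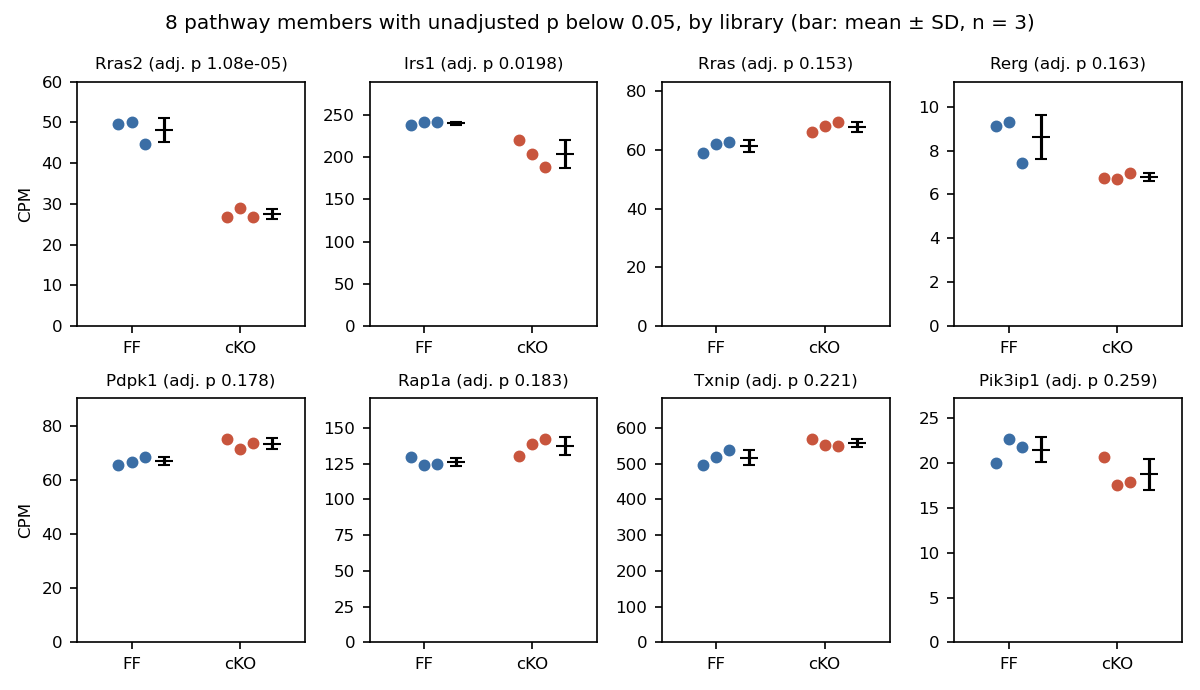
CPM in each library of the 8 members with an unadjusted p below 0.05, with the group mean and SD beside the points (n = 3) and the edgeR adjusted p above each panel. Rras2 goes from 44.7 to 50.1 CPM in FF to 26.7 to 29.0 CPM in cKO; the differences in the other panels are small beside the level of the gene.

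PI3K is a dimer of a catalytic and a regulatory subunit, and 0 of the 5 subunit genes among the members passed. Pik3r3, a subunit gene that is no member, fell (edgeR adjusted p = 0.0318). Pik3r1, the main regulatory subunit gene here by FPKM, had 200, 196 and 193 CPM in FF and 203, 206 and 218 CPM in cKO. The groups did not overlap, with a fold of 1.06 and a 95% interval of 0.998 to 1.14 (edgeR adjusted p = 0.301). Among the catalytic genes, Pik3cb had a fold of 1.09 and no overlap between groups (edgeR adjusted p = 0.316), Pik3ca had 1.01 and Pik3cd 0.966. Pik3cd encodes p110delta, a form typical of blood cells. It made up 57.7% ± 1.16 of the summed FPKM of these 3 genes in FF and 56.1% ± 3.01 in cKO (SD, n = 3). With Pik3cg, the gene of another blood cell form and no member, added to the sum, the share was 35.4% ± 1.80 in FF and 33.2% ± 2.75 in cKO, in cultures with the macrophage marker sums given above. How much of Pik3cd came from those cells was not tested. Pik3ip1, an inhibitor of PI3K, had 19.996, 22.7 and 21.8 CPM in FF and 20.7, 17.6 and 17.9 CPM in cKO. Its cKO replicate 1 lay within the FF range, and the fold was 0.873 with a 95% interval of 0.766 to 0.994 (edgeR adjusted p = 0.259). Pik3r2 had a fold of 0.951.

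Below PI3K, 0 of 6 members of the AKT and mTOR role passed. Akt1 had 274, 280 and 266 CPM in FF and 296, 262 and 256 CPM in cKO; its cKO libraries fell on both sides of the FF range, and the fold was 0.992 with a 95% interval of 0.916 to 1.07. Akt1 made up 76.3% of the summed Akt1 and Akt2 FPKM in FF and 76.6% in cKO. Pdpk1, which encodes the kinase PDK1 that phosphorylates AKT, had 65.6, 66.8 and 68.6 CPM in FF and 75.3, 71.3 and 73.7 CPM in cKO. The groups did not overlap (log2 fold change 0.13, standard error 0.0506, edgeR adjusted p = 0.178). Mtor had a fold of 0.928 with a 95% interval of 0.842 to 1.02. Tsc1 and Tsc2, the brake on Rheb, had folds of 1.02 and 0.998, and Akt2 had 0.971.

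FOXO factors drive genes of growth arrest, redox control and starvation when AKT is low. Foxo3 had 87.9, 89.05 and 90.4 CPM in FF and 97.9, 93.1 and 94.95 CPM in cKO, with no overlap and a fold of 1.07 (edgeR adjusted p = 0.293). Foxo1 had a fold of 0.959 with a 95% interval of 0.852 to 1.08. The FOXO-dependent members all had positive log2 fold changes, between 0.03 and 0.11, and 0 of 5 passed. Positive values were seen for 6436 of all 12830 genes. Of 21 other FOXO factors and targets, described below, 12 were positive and 9 negative. Txnip, which restrains thioredoxin and glucose uptake and also responds to glucose, had 495, 517 and 538 CPM in FF and 570, 553 and 549 CPM in cKO. The groups did not overlap, and the fold was 1.08 with a 95% interval of 1.01 to 1.15 (edgeR adjusted p = 0.221). Sesn1, a sestrin that restrains mTORC1, also had no overlap, at a fold of 1.06 (edgeR adjusted p = 0.375). The cell cycle inhibitor gene Cdkn1b, Ccng2 and Sesn3 had folds of 1.07, 1.04 and 1.02.

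Upstream sequences were searched because FOXO proteins bind DNA directly. RefSeq windows matched 46 of the 50 members with 58 start sites; the others were Rap1a, Rerg, Mapk3 and Insr. The FOXO core TGTTTAC, searched on both strands in the 250 bases upstream of each start, was found for Txnip, Nras, Akt1 and Rasa1. That is 6.90% of the members' windows, beside 3.17% of 32851 windows genome-wide. The insulin response motif CAAAACA was found for Irs1, Irs2, Ccng2 and Nras, also 6.90%, beside 5.56% genome-wide. The motifs do not contain one another, though their sites abut in Nras. A match describes letters, not binding. The 4 FOXO core sites are shown with 10 bases on each side on the gene's strand and the motif in capitals, as TGTTTAC or its reverse complement GTAAACA (GRCm38.p6). They lie at chr3:96557826-96557852 (Txnip, plus strand), chr3:103058087-103058113 (Nras, plus strand), chr12:112675029-112675055 (Akt1, minus strand) and chr13:85289690-85289716 (Rasa1, minus strand).
Txnip: tggaggcctgGTAAACAagggccaagt
Nras: gtttatctttGTAAACAcaaaacattt
Akt1: tctaccctctTGTTTACactcctggtg
Rasa1: ttctctccctGTAAACAaagccgtgag
Of these 4 genes, Txnip had a log2 fold change of 0.11, Nras 0.05, Akt1 -0.01 and Rasa1 -0.0013, and 0 passed.

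The rest of the pathway was read from a wider list of 121 genes, of which 109 were measured. In it 3 rose and 3 fell, 5.50% of those measured beside 4.84% of all genes, with a median log2 fold change of -0.0021. Among 41 other GTPases and regulators 1 rose and 0 fell in edgeR, which is 2.44%. The gene was Rgl1, an exchange factor for Ral. It had 96.9, 87.8 and 90.9 CPM in FF and 116, 108 and 108 CPM in cKO (log2 fold change 0.27, edgeR adjusted p = 0.00671, and 0.0618 without FF replicate 2). Rap1gap, which encodes a GTPase-activating protein for Rap1, did not pass in edgeR but did in other tests. It had 22.8, 19.2 and 20.9 CPM in FF and 12.6, 6.19 and 5.59 CPM in cKO, with every cKO library below every FF library and cKO replicate 1 nearest to FF. Its log2 fold change of -1.37 (standard error 0.368) was the largest in size of both lists, with an adjusted p of 0.168 in edgeR, 0.00714 in DESeq2 and 0.0139 in limma-voom. It was chosen after its values were seen. Of 15 other adaptor and ERK-arm genes 0 passed. The smallest p there was that of Frs2, an adaptor of FGF receptors, at -0.12 on the log2 scale (edgeR adjusted p = 0.246). Of 32 other PI3K, AKT and mTOR genes 2 fell and 0 rose, which is 6.25% beside 4.84% of all genes in either direction. Pik3r3, a regulatory subunit of PI3K, had 39.2, 36.5 and 38.2 CPM in FF and 29.5, 33.1 and 32 CPM in cKO (log2 fold change -0.27, edgeR adjusted p = 0.0318). Inppl1, which encodes the lipid phosphatase SHIP2, had 239, 228 and 228 CPM in FF and 220, 192 and 190 CPM in cKO (log2 fold change -0.21, edgeR adjusted p = 0.0487). In both genes every cKO library was below every FF library. With 1 library left out the edgeR adjusted p of Pik3r3 was 0.0515 without cKO replicate 1 and 0.127 without FF replicate 1, and it lost the call whichever of the 6 libraries was left out. That of Inppl1 was 0.000351 without cKO replicate 1 and between 0.117 and 0.205 without any other library.

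Of 21 other FOXO factors and targets 2 rose and 1 fell, which is 14.3% beside 4.84% of all genes. Groups did not overlap for 47.6% of this list (5 genes higher in cKO and 5 lower), beside 22.5% of all genes. At an unadjusted p below 0.05 (edgeR) there were 11 of the 21, beside 17.3% of all genes. Whether the list differs from all genes was not tested, and it was chosen with earlier results of these data known. Cat, the catalase gene, had 342, 361 and 383 CPM in FF and 442, 430 and 447 CPM in cKO, with no overlap (log2 fold change 0.28, edgeR adjusted p = 0.00294). Klf15, a metabolic transcription factor, had 2.92, 3.54 and 3.62 CPM in FF and 4.82, 5.30 and 6.33 CPM in cKO (log2 fold change 0.71, edgeR adjusted p = 0.0286). Its adjusted p was 0.0138 without cKO replicate 1 and between 0.0604 and 0.154 without any other library. Pck2, the mitochondrial PEP carboxykinase, which is also a known target of the amino acid response, had 89.2, 94.9 and 92.4 CPM in FF and 73.2, 72.0 and 68.8 CPM in cKO (log2 fold change -0.37, edgeR adjusted p = 0.000598). Cat and Pck2 passed without any 1 library and in DESeq2 and limma-voom. The called genes of this list thus went in both directions.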

How the data were processed

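RNA was sequenced from 6 libraries made with a stranded mRNA kit, per the labels' protocols. The submitters' processing notes name mm10; aligner, counter and strand setting: not given in the sources used here. Per the file headers, the deposited table held gene counts, which the authors did not normalize, and the authors' FPKM values, scaled by length and library size. It also held the authors' deposited log2 fold changes, p-values and adjusted p-values, which were not used for any value in the text. The test was edgeR 4.0.16 under R 4.3.3 (TMM, filterByExpr, which removed 0 genes, robust quasi-likelihood F test, no covariates). Intervals are the log2 fold change plus or minus the t quantile times its standard error, at 95%. FPKM served for levels and shares only. The script was tested on simulated data. Alternatives were other scaling, other filters, DESeq2 1.42.0, limma-voom (limma 3.58.1), the replicate number as a block and each library left out. A test against a 1.2-fold change, FF and cKO replicate 1 left out together, and counts per FPKM were added after seeing the data.

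The members and lists were chosen with earlier results of these data known. Values by library are given for Rras2, Rras, Mras, called members, members with an unadjusted p below 0.05, the member of highest FPKM in each role, and called genes of the wider list or, where none was called, the gene of smallest p. The other members are given by fold, and Map2k2, Rap1gap and sums with other members (Rras2 or Lyz2 left out, Pik3cg added) were added after the values were seen. Positions came from GENCODE M21, which matched 12611 of 12830 rows and named 45 rows that had only an identifier. Upstream sequences came from RefSeq (GRCm38.p6). Figures were drawn with matplotlib 3.10.9.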

Additional observations from a re-analysis of the deposited data

How the results depend on the processing

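Rras2 kept its direction and call under all 14 alternative settings listed before the added ones, with adjusted p-values up to 0.000940. The setting without a filter on low counts could not differ from the main fit, because the filter removed 0 genes. The count of members called besides Rras2, which is 1 (Irs1), became 0 in limma-voom and against a 1.2-fold change, 0 to 4 with 1 library left out, and 4 without FF and cKO replicate 1 together (Irs1, Rap1a, Rap1b and Pik3ip1, the last with an edgeR adjusted p of 0.0480). Members called lower numbered 1 in limma-voom and against a 1.2-fold change, and 1 to 3 with 1 library left out. Members called higher numbered 0 to 2 with 1 library left out and 2 without FF and cKO replicate 1 together. In the wider list 5 genes were called lower in DESeq2 (Rap1gap and Cdkn1a besides the 3), 0 in each direction against a 1.2-fold change and 6 lower without FF and cKO replicate 1 together; with 1 library left out 1 to 5 were called higher and 1 to 6 lower. Over all genes 177 were called higher in limma-voom, 42 higher and 59 lower against a 1.2-fold change, and 490 higher without FF and cKO replicate 1 together. With 1 library left out 107 to 535 were called higher and 161 to 631 lower. The highest of these counts came without cKO replicate 1. The cause was not tested.

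Genes near 0 changed sign without a call. Ralb had log2 fold changes of -0.000999 with RLE factors, -0.000493 among genes of at least 5 CPM and -0.000926 in DESeq2, and Sos2 had -0.0193 without FF and cKO replicate 1 together. With 1 library left out, Mras ranged from -0.016 to 0.047, Ralb from -0.0084 to 0.0066, Rheb from -0.0083 to 0.089, Mapk3 from -0.029 to 0.024 and Akt1 from -0.079 to 0.027. The share of Map2k1 in summed Map2k1 and Map2k2 differed by -3.45 percentage points, cKO minus FF, from FPKM, by -4.05 to -2.32 with 1 library left out, and by -0.664 from CPM.

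With the replicate block Rras2 was at -0.81 on the log2 scale (edgeR adjusted p = 1.67e-05), Irs1 had an adjusted p of 0.0164, and 282 genes were called higher and 387 lower. Whether equal numbers pair the libraries is not given in the labels. Same-numbered deviations correlated at -0.036, 0.091 and -0.099, and differently numbered ones at -0.19 to 0.21. With 3 libraries a group these values cannot settle the question. Rasl11b, at 45.2 counts, was the member most limited by depth.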
